A study of Mus musculus with 20 samples.

Results

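The 38 genes described here encode the enzymes, membrane proteins and acid pump of the lysosome, together with Tfeb, a transcription factor that drives many of them. They were chosen by name: every non-control probe whose gene name in the scanner files is one of the 38 was taken, which gave 52 of 39429 probes. Each gene is shown by its brightest probe, so that 38 of the 21963 genes represented on the arrays are members. By role they are 10 cathepsins and related proteases, 10 glycosidases and sulfatases, 7 proteins of lipid handling, 6 membrane proteins, 4 proton pump proteins and Tfeb.

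The series holds 20 arrays of 2 colours that read mRNA of macrophages grown for 6 days from bone marrow of C57BL/6 mice, in medium conditioned by cells that secrete the growth factor M-CSF. Each array set LPS-treated against untreated cells matched for genotype and hours, with LPS at 200 ng/mL in serum-free medium for 1, 2, 4, 8 or 16 h. The 4 genotypes by label were cells lacking both MyD88 and TRIF (double-KO), TRIF-KO, MyD88-KO and wild-type, with 5 arrays each, 1 per time point. The LPS receptor Tlr4 passes its signal on through 2 adapters, MyD88 and TRIF (encoded by Ticam1), and the design asks how the response to LPS runs without 1 or both of them. Mice were matched for age and sex by label. The type of knockout allele, the age itself and whether arrays came from separate animals are not given in the sources used here, so p-values measure the spread between these arrays, time points included. With bulk RNA, fewer cells of a type and less RNA per cell cannot be told apart.

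Lysosomes break down proteins, sugars, lipids and swallowed microbes with acid hydrolases that work because a proton pump keeps the interior acidic. In macrophages they digest phagocytosed material, and cathepsins there also trim antigens and the invariant chain for MHC class II. Many lysosomal genes share a short promoter element bound by Tfeb and its relatives, which move to the nucleus when lysosomes are under demand.

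Between 57.0% and 70.5% of the 43020 non-control spots of an array were well above background. The probe of every member passed that filter, and 37 of 38 were well above background in both channels on all 20 arrays, Arsb on 17. The probes of Ctss and Cd63 had a saturated spot on 3 arrays each, and those of Ctsb, Lamp1 and Ctsa on 1 each. All 9 represented macrophage markers were well above background on all untreated arrays of each genotype. The Ticam1 transcript averaged 7.28 ± 0.04 log2 intensity in untreated double-KO cells, 10.81 ± 0.28 in TRIF-KO, 10.47 ± 0.10 in MyD88-KO and 10.65 ± 0.19 in wild-type (SD, n = 5, 5, 4 and 5). It was thus at the wild-type level in the arrays labelled TRIF-KO, so TRIF-KO below means the arrays with that label. The Myd88 transcript averaged 14.00 ± 0.13 in double-KO and 14.10 ± 0.15 in MyD88-KO against 14.41 ± 0.39 in wild-type, and where these probes lie relative to the altered part of each gene is not given in the sources used here. Double-KO arrays were scanned on day 2, TRIF-KO and wild-type arrays on day 1 and MyD88-KO arrays on both, so the day and the genotype cannot be told apart for double-KO against TRIF-KO or wild-type. Double-KO arrays shared a slide only with MyD88-KO arrays, so slide and genotype are largely confounded for double-KO as well.

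Many lysosomal genes had less mRNA with LPS in TRIF-KO and wild-type macrophages at 4 and 8 h, while no member was below a log2 ratio of -0.5 in double-KO cells. A log2 ratio is that of LPS-treated over untreated cells. At 8 h, 0 of 38 members were below -0.5 in double-KO, 27 in TRIF-KO, 15 in MyD88-KO and 18 in wild-type, where 0.0638%, 20.4%, 21.8% and 20.7% of all genes were below it on the same arrays. The share of members in TRIF-KO, MyD88-KO and wild-type thus lay over that of all genes. The median member was at 0.01 in double-KO, -0.74 in TRIF-KO, -0.31 in MyD88-KO and -0.45 in wild-type at 8 h, where the median gene was between -0.02 and 0.00. At 4 h, 0, 19, 7 and 15 members were below -0.5 in the same order of genotypes, against 0.319%, 15.4%, 16.2% and 20% of all genes. At 16 h, 0, 20, 10 and 9 members were below -0.5 in that order, against 0.56%, 14.9%, 16.7% and 10.8% of all genes. With 1 array per genotype and time these counts have no replicate check. The members' ratios moved with the loess step, which corrects each array over intensity. With each array only centred on its median, 0, 21, 4 and 9 members were below -0.5 at 8 h, against 0.82%, 19%, 16.4% and 14.4% of all genes. At 16 h these were 0, 11, 4 and 5 members, against 0.469%, 9.42%, 12% and 5.71%. At 4 h they were 0, 29, 5 and 11 members, against 0.251%, 36.9%, 15.7% and 20.4%, with a median member of -0.15 in wild-type. The share of members in MyD88-KO then lay under that of all genes at each of these times. The median member on double-KO arrays lay between 0.17 and 0.69 with this centring, against -0.01 to 0.03 after loess. The direction of the family then turned in MyD88-KO at 4 and 8 h (medians 0.11 and 0.42, against -0.28 and -0.31 after loess) and in wild-type at 16 h (0.52, against -0.02), kept its sign in TRIF-KO at 8 h (-0.58) and was near 0 in wild-type at 8 h (-0.08), while the median gene shifted by up to 0.23 above 0 and 0.26 below it.

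**Figure D1:**
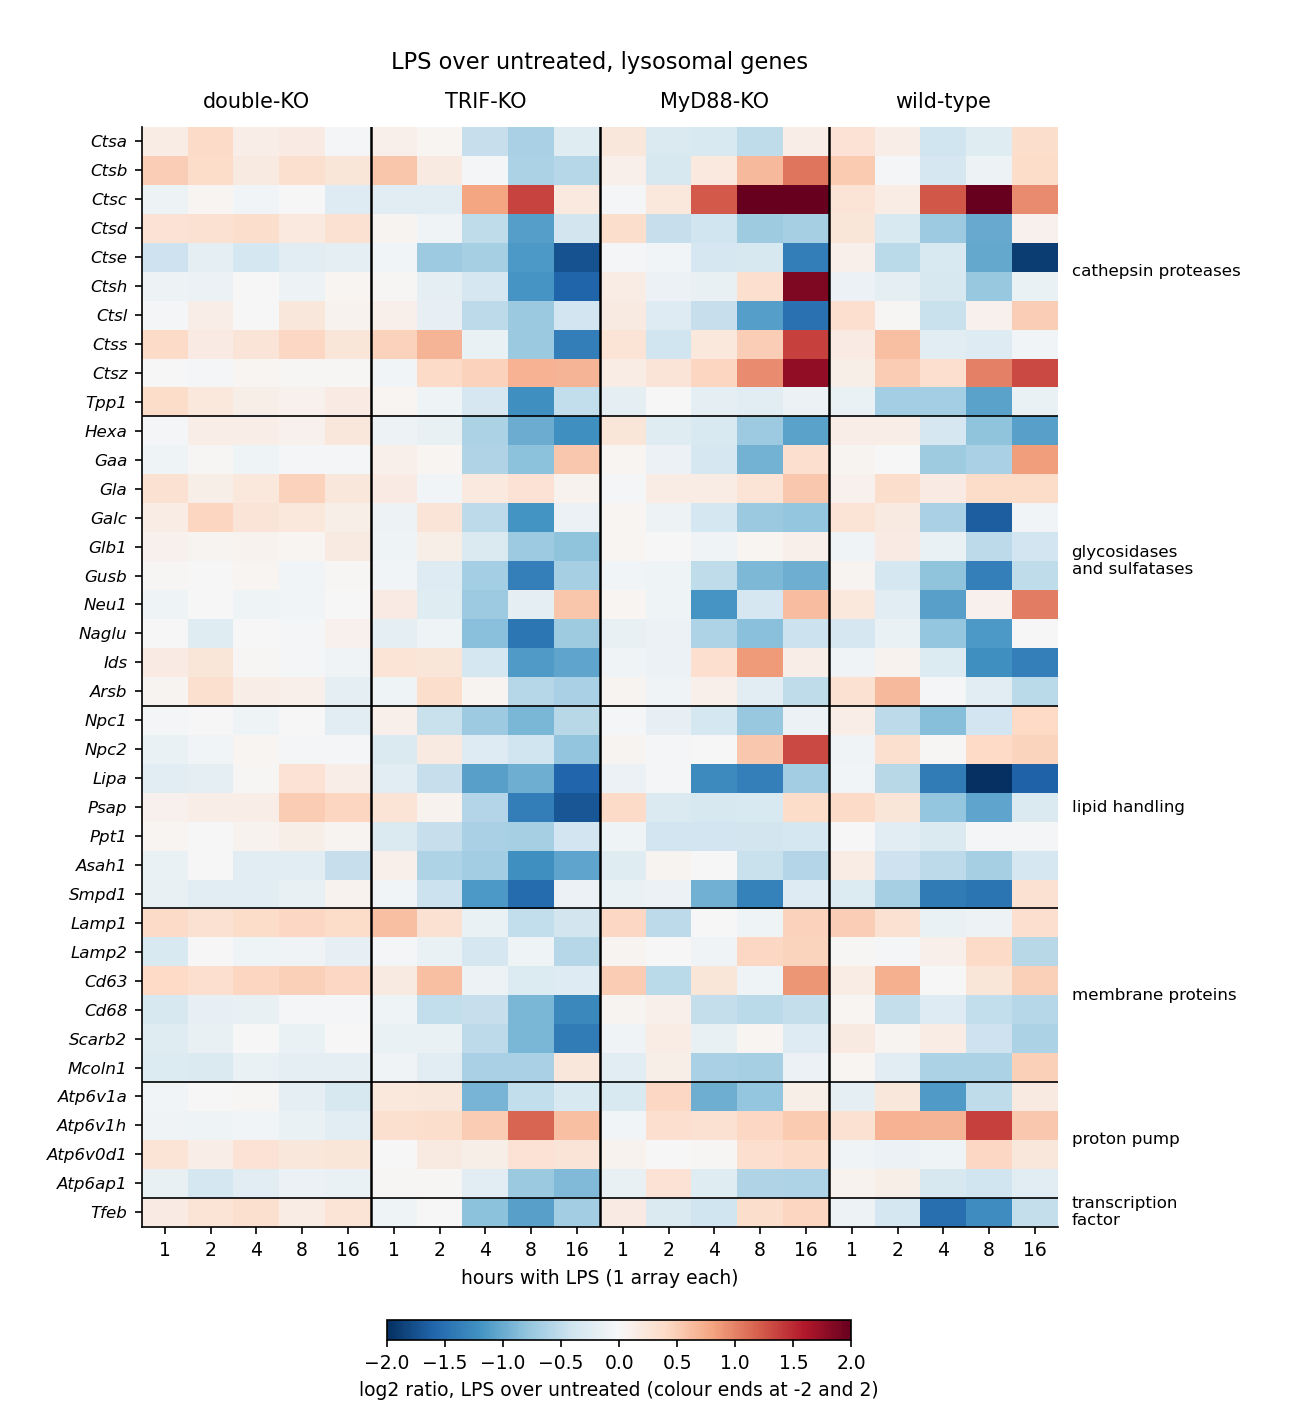
Log2 ratio of LPS over untreated for each of the 38 lysosomal genes (rows, grouped by role) on each of the 20 arrays (columns, hours with LPS within each genotype); blue is lower and red higher with LPS. The double-KO columns are pale throughout, the blue columns at 4 and 8 h are shared by TRIF-KO and wild-type, and Ctsc, Ctsz and Atp6v1h are red in the 3 responding genotypes.

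**Figure D2:**
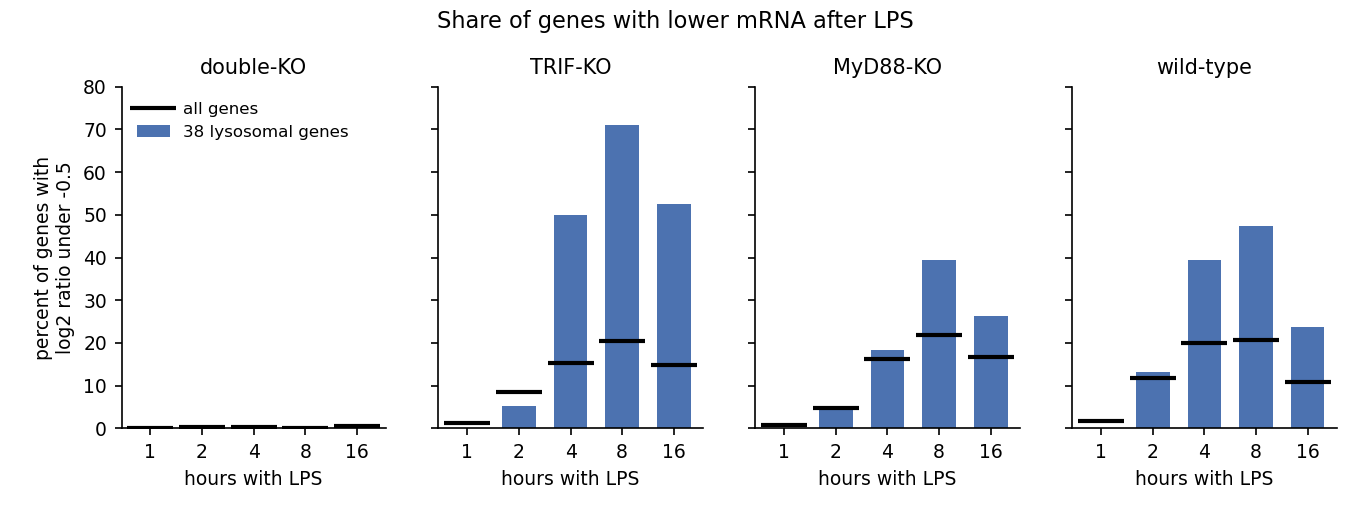
Percent of genes with a log2 ratio under -0.5 at each time of LPS in each genotype: bars for the 38 lysosomal genes, horizontal marks for all genes, 1 array each. The TRIF-KO and wild-type bars stand above the marks at 8 h (27 and 18 of 38 members), the double-KO bars are at 0, and the MyD88-KO bar at 16 h (10 of 38) is nearer to its mark.

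Some of the low ratios at 8 h were higher again at 16 h. The counts that follow take all members, also those already above 0 at 8 h, such as Ctsh in MyD88-KO (0.34 and then 1.86). From 8 to 16 h, 0 of 38 members gained at least 0.5 in double-KO, 9 in TRIF-KO, 15 in MyD88-KO and 16 in wild-type, as 0.465%, 17%, 12.1% and 19.7% of all genes did. Over the same step 0, 5, 3 and 4 members lost at least 0.5 in these genotypes, as 1.08%, 11.6%, 10.2% and 13% of all genes did. The lowest ratio of a member came at 8 h for 18 members in TRIF-KO, 10 in MyD88-KO and 14 in wild-type, against 24.9%, 23.2% and 20.9% of all genes, and at 16 h for 13, 9 and 7 members, against 24.5%, 18.3% and 22.8%. Neu1, the sialidase that trims glycoproteins, had ratios of -0.72 in TRIF-KO, -1.19 in MyD88-KO and -1.08 in wild-type at 4 h, and of 0.55, 0.62 and 1.03 at 16 h. Gaa, which degrades glycogen, likewise had -0.81, -0.94 and -0.64 at 8 h and 0.54, 0.33 and 0.84 at 16 h in these genotypes. Both genes were low in the middle of the course and above 0 at its end in each of the 3 genotypes, while their double-KO ratios stayed between -0.09 and 0.02. Smpd1, the acid sphingomyelinase, had -1.54, -1.36 and -1.45 at 8 h and -0.12, -0.27 and 0.31 at 16 h in TRIF-KO, MyD88-KO and wild-type cells.

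Averaged over the 5 time points, the LPS response of the members differed between double-KO and the other genotypes for 11 genes. In double-KO minus wild-type, 5 of 38 members were higher and 2 lower at an adjusted p under 0.05 in limma's fit over all genes, against 6.07% of genes higher and 5.95% lower. In double-KO minus TRIF-KO, 6 were higher and 1 lower (3.07% and 3.57% of genes). In double-KO minus MyD88-KO, 2 were higher and 2 lower (4.33% and 5.72%). The shares of members were near those of all genes against MyD88-KO, and above them on the higher side against wild-type and TRIF-KO. The median member differed by 0.18 from wild-type, 0.44 from TRIF-KO and 0.16 from MyD88-KO, where the median gene differed by 0.02, 0.04 and 0.02. All 3 comparisons share the double-KO arrays and are not independent. In TRIF-KO minus wild-type, MyD88-KO minus wild-type and TRIF-KO minus MyD88-KO, 0 members were called, as were 0% of all genes in each, although 4, 6 and 11 members and 1651, 3187 and 4092 genes had an unadjusted p under 0.05.

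The members higher in double-KO had negative mean ratios in the genotype they were set against. Among the proteases, Tpp1, a tripeptidyl peptidase, had ratios of 0.37, 0.21, 0.12, 0.09 and 0.17 at 1, 2, 4, 8 and 16 h in double-KO, against -0.13, -0.68, -0.68, -1.06 and -0.13 in wild-type. All 5 double-KO values lay above all 5 wild-type values. The difference was 0.73 ± 0.16 (SE, adjusted p = 0.014), and 0.61 ± 0.16 against TRIF-KO (adjusted p = 0.037). Ctsd, the aspartic protease cathepsin D, had ratios of 0.29, 0.30, 0.34, 0.20 and 0.30 in double-KO, against 0.25, -0.30, -0.72, -1.01 and 0.09 in wild-type. The genotypes overlapped at 1 h and were apart from 2 h on. Its differences were 0.63 ± 0.18 from wild-type, 0.68 ± 0.18 from TRIF-KO and 0.67 ± 0.18 from MyD88-KO (adjusted p = 0.035, 0.036 and 0.036), but a second Ctsd probe gave 0.19, 0.57 and 0.39 with adjusted p of 0.63, 0.14 and 0.27.

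Of the sugar-degrading enzymes, Gusb (beta-glucuronidase) had ratios between -0.05 and 0.04 on the 5 double-KO arrays, against 0.05, -0.34, -0.80, -1.37 and -0.50 in wild-type. The groups overlapped at 1 h, and the difference was 0.60 ± 0.17 (adjusted p = 0.035), with 0.61 ± 0.17 from TRIF-KO (adjusted p = 0.043). The second Gusb probe gave 0.47 and 0.48 with adjusted p of 0.015 and 0.020. Hexa, a subunit of beta-hexosaminidase, which degrades gangliosides, was higher in double-KO than in TRIF-KO by 0.73 ± 0.18 (adjusted p = 0.031). Naglu, an enzyme of heparan sulfate breakdown, differed from TRIF-KO by 0.62 ± 0.18 (adjusted p = 0.0496, just under the threshold).

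In lipid handling, Lipa, the acid lipase that frees cholesterol and fatty acids from ingested lipoproteins, had ratios of -0.21, -0.20, 0.02, 0.28 and 0.13 in double-KO, against -0.05, -0.55, -1.40, -2.19 and -1.61 in wild-type. The 2 genotypes overlapped at 1 h and were apart from 2 h on. The difference was 1.17 ± 0.29 (adjusted p = 0.024), a 2.24-fold difference in ratio. The untreated level of Lipa itself rose with time in culture (as the untreated levels show), so its ratio holds both a rise without LPS and the level with LPS, which stayed between 13.8 and 14.4 log2 intensity in wild-type. Ppt1, a thioesterase that removes palmitate from proteins, was higher in double-KO than in TRIF-KO by 0.55 ± 0.08 (adjusted p = 0.0027) and than in MyD88-KO by 0.37 ± 0.08 (adjusted p = 0.018), with ratios of 0.01 to 0.11 in double-KO against -0.29, -0.45, -0.64, -0.66 and -0.39 in TRIF-KO.

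The members lower in double-KO had positive mean ratios in the genotype they were set against. Ctsc, the dipeptidyl peptidase that activates granule serine proteases, had ratios of -0.10, 0.04, -0.05, 0.01 and -0.26 in double-KO, against -0.04, 0.21, 1.22, 2.85 and 2.23 in MyD88-KO. The MyD88-KO values were above each double-KO value from 2 h on. The difference was -1.37 ± 0.33 (adjusted p = 0.027), and the second Ctsc probe gave -1.59 (adjusted p = 0.033). Ctsz, a carboxypeptidase, had ratios between -0.04 and 0.04 in double-KO, against 0.15, 0.25, 0.44, 0.95 and 1.77 in MyD88-KO and 0.12, 0.50, 0.34, 1.01 and 1.31 in wild-type. Neither genotype overlapped with double-KO, and the differences were -0.70 ± 0.18 and -0.65 ± 0.18 (adjusted p = 0.036 and 0.037). Atp6v1h, a regulatory subunit of the proton pump, was lower in double-KO by 0.83 ± 0.14 against wild-type (adjusted p = 0.0045) and by 0.70 ± 0.14 against TRIF-KO (adjusted p = 0.013): its ratios were -0.08, -0.08, -0.05, -0.13 and -0.23 in double-KO, against 0.32, 0.35, 0.50, 1.17 and 0.61 in TRIF-KO and 0.30, 0.70, 0.68, 1.36 and 0.55 in wild-type. The other pump members did not move with it: Atp6v1a, the catalytic subunit, had -0.93 at 4 h in TRIF-KO and -1.13 in wild-type, and none of Atp6v1a, Atp6v0d1 and Atp6ap1 passed the test in these comparisons.

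Tfeb itself had ratios of 0.16, 0.28, 0.32, 0.15 and 0.27 in double-KO, -0.08, 0.01, -0.82, -1.09 and -0.69 in TRIF-KO, 0.16, -0.28, -0.39, 0.34 and 0.44 in MyD88-KO and -0.11, -0.35, -1.50, -1.24 and -0.48 in wild-type. It was higher in double-KO than in wild-type by 0.97 ± 0.23 (adjusted p = 0.018), and a second Tfeb probe was well above background in both channels on only 1 of 20 arrays. Of the 6 membrane proteins, 0 passed the test in these 3 comparisons. With slides as a fixed term 0 members stayed past the threshold in any of the 3. The Ctsd and Tfeb differences from wild-type were then -0.51 ± 0.63 and -0.31 ± 0.81 (SE). As double-KO and wild-type shared no slide, these 2 estimates are imprecise and their turned sign is not clear. Without time point as a block 1, 1 and 0 members stayed past the threshold against wild-type, TRIF-KO and MyD88-KO.

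**Figure D3:**
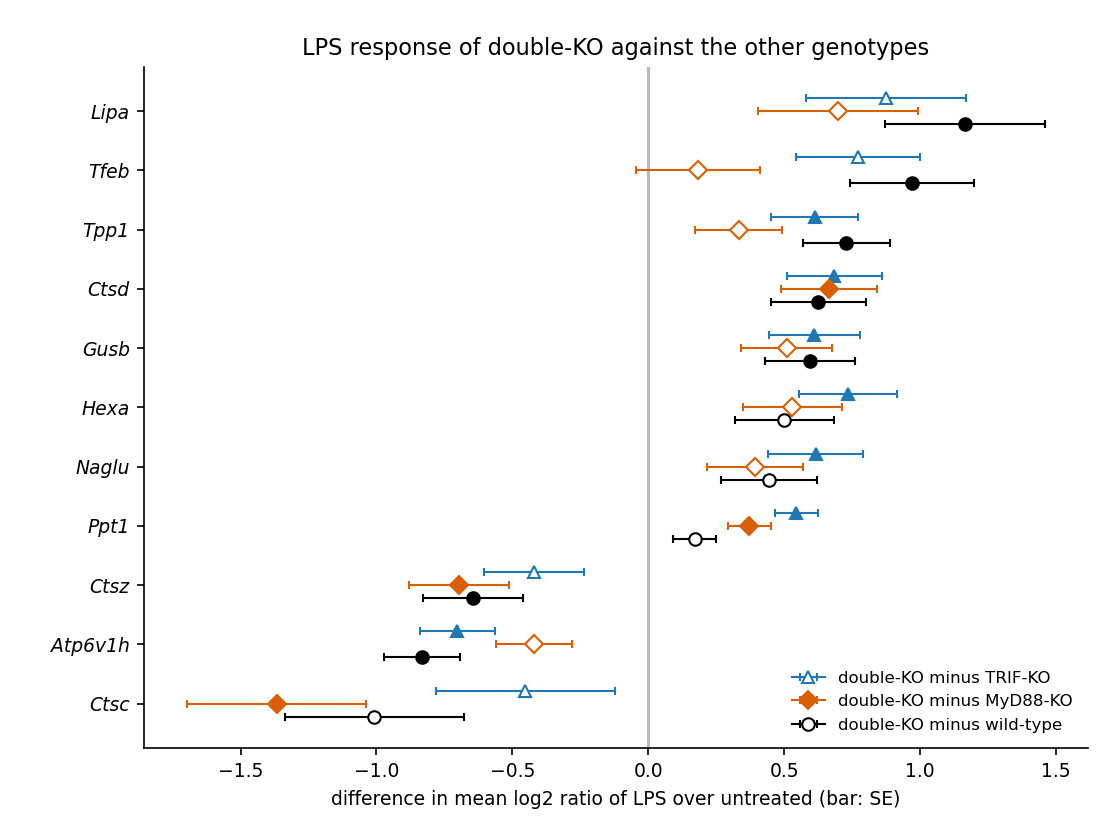
Difference in mean log2 ratio of LPS over untreated between double-KO and each other genotype for the 11 members called in at least 1 comparison; bars are SE and filled symbols are those with an adjusted p under 0.05. Lipa, Tfeb, Tpp1, Ctsd and Gusb lie right of 0 and Ctsz and Atp6v1h left of it against wild-type, while Ctsc is called only against MyD88-KO (-1.37).

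A dye effect specific to a gene cannot be told apart from the LPS response by these arrays alone. Cy5 carried the LPS-treated RNA on 19 arrays, and the dyes were swapped on 1, MyD88-KO at 2 h, whose ratio was turned round and which is the only array of its genotype and time. Of the 38 members, 19 had the same sign on all 5 double-KO arrays, and 15 of these had the opposite sign on the turned array. Of all genes 30.1% had the same sign on all 5, and 65.3% of these the opposite sign on the turned array. Cd63, a tetraspanin of lysosomes and secretory granules, had ratios of 0.40, 0.34, 0.43, 0.48 and 0.41 in double-KO, and 0.51, -0.54 and 0.24 in MyD88-KO at 1, 2 and 4 h. Lamp1, the main membrane glycoprotein of lysosomes, had 0.30 to 0.42 in double-KO, and 0.42, -0.52 and -0.01 in MyD88-KO at the same times. Both genes were above 0 on every double-KO array and lowest in MyD88-KO on the array with the dyes turned. Ctsb, Ctsd and Ctss were likewise above 0 on every double-KO array, and had -0.31, -0.46 and -0.40 on the turned array. Their MyD88-KO values above and below hold that array. Differences between genotypes and slopes over time do not hold a dye effect that is the same on all arrays, apart from that 1 turned array.

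To ask how the ratio moved with time in each genotype, a slope over log2 time was fitted, in log2 units per doubling of the hours with LPS. In double-KO cells 0 of 38 slopes passed the test, as did 0% of all genes, where 0 members and 55 genes had an unadjusted p under 0.05. In TRIF-KO cells 12 members fell and 0 rose, against 3.74% and 3.31% of all genes. In MyD88-KO cells 5 rose and 4 fell (5.52% and 4.76%), and in wild-type cells 1 rose and 5 fell (2.92% and 2.6%). The MyD88-KO arrays of 1 and 2 h were scanned on day 1 and those of 4, 8 and 16 h on day 2, and with the scan day or the slide as a fixed term 0 of the 9 MyD88-KO slopes passed. The median slope of the members was 0.01 in double-KO, -0.20 in TRIF-KO, -0.03 in MyD88-KO and -0.05 in wild-type, where the median gene had 0.00 or -0.01. With arrays only centred on their medians, 0 members passed in TRIF-KO and 0 in wild-type, and in MyD88-KO 7 rose and 0 fell.

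The members that fell with time in TRIF-KO came from each role apart from Tfeb. They were 4 proteases (Ctss, Ctsh, Ctse and Ctsb), 3 sugar-degrading enzymes (Ids, Hexa and Glb1), Psap and Asah1 of lipid handling, the membrane proteins Scarb2 and Cd68, and Atp6ap1, an accessory protein of the proton pump. Psap, the precursor of the saposins that help degrade sphingolipids, had ratios of 0.27, 0.07, -0.58, -1.38 and -1.71 in TRIF-KO and a slope of -0.54 ± 0.11 (adjusted p = 0.0082). Its ratios fell at each step after 1 h, and the level with LPS went down to 17.0 log2 intensity at 16 h while that of untreated cells was 18.7. Scarb2, which carries glucocerebrosidase to lysosomes, had ratios of -0.14, -0.13, -0.52, -0.91 and -1.40 (slope -0.33 ± 0.05, adjusted p = 0.0020). Cd68, a heavily glycosylated lysosomal protein of macrophages, had -0.09, -0.49, -0.46, -0.91 and -1.28 (slope -0.28 ± 0.05, adjusted p = 0.0046), and its second probe gave -0.37 (adjusted p = 0.023). Without the TRIF-KO array of 16 h, 2 of these 12 slopes passed, those of Asah1 and Hexa.

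The Hexa ratio fell with time in TRIF-KO, MyD88-KO and wild-type. Between 1 and 16 h untreated Hexa went from 17.38 to 17.07 log2 intensity in TRIF-KO. It went from 16.92 to 17.54 in MyD88-KO and from 16.96 to 17.31 in wild-type. With LPS the levels went from 17.28 to 15.84, 17.17 to 16.48 and 17.10 to 16.23 in these genotypes. The ratios of Hexa were -0.03, 0.14, 0.13, 0.08 and 0.23 in double-KO, -0.11, -0.15, -0.64, -0.998 and -1.23 in TRIF-KO, 0.25, -0.25, -0.30, -0.73 and -1.07 in MyD88-KO and 0.14, 0.13, -0.33, -0.80 and -1.08 in wild-type. It was the only member whose slope in double-KO differed from each other genotype: the differences were 0.35 ± 0.06 from TRIF-KO, 0.36 ± 0.06 from MyD88-KO and 0.38 ± 0.06 from wild-type (adjusted p = 0.023, 0.011 and 0.012). Its probe lies on chromosome 9 at 59411712 to 59411771 (mm9). Ctse, a cathepsin of endosomes, also fell in all 3 genotypes, with slopes of -0.38 ± 0.08, -0.30 ± 0.08 and -0.45 ± 0.08 in TRIF-KO, MyD88-KO and wild-type (adjusted p = 0.013, 0.033 and 0.0052). Without the MyD88-KO array of 16 h, the Ctse slope in MyD88-KO was -0.11 (adjusted p = 0.49). With median centring the Hexa slopes were -0.32, -0.04 and -0.29 in TRIF-KO, MyD88-KO and wild-type (adjusted p = 0.20, 0.88 and 0.28), and the Hexa difference from MyD88-KO turned to -0.063.

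Few members differed in slope between double-KO and the other genotypes. In double-KO minus wild-type 1 was higher and 0 lower, against 0.264% and 0.273% of all genes. In double-KO minus TRIF-KO 3 were higher (Hexa, Cd68 by 0.36 ± 0.07 and Scarb2 by 0.38 ± 0.07, adjusted p = 0.041 and 0.035, and 0.18 for the second Cd68 probe) and 0 lower, against 0.291% and 0.2%. In double-KO minus MyD88-KO 2 were higher and 1 lower, against 0.783% and 1.16%: Hexa, Ctsl, a cysteine protease, by 0.45 ± 0.11 (adjusted p = 0.049) and Ctsz by -0.38 ± 0.08 (adjusted p = 0.033).

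Several cathepsins went opposite ways late in the course in TRIF-KO and MyD88-KO. Ctsh, an aminopeptidase, had ratios of 0.02, -0.19, -0.34, -1.18 and -1.60 in TRIF-KO, against 0.15, -0.12, -0.14, 0.34 and 1.86 in MyD88-KO. Ctss, which degrades the invariant chain, had 0.45, 0.68, -0.13, -0.73 and -1.38 in TRIF-KO, against 0.28, -0.40, 0.21, 0.49 and 1.36 in MyD88-KO. Both genes were close in the 2 genotypes at 1 h and furthest apart at 16 h, and their wild-type ratios at 16 h were -0.14 and -0.05. Ctss also lay apart at 2 h, where the MyD88-KO value is from the array with the dyes swapped. Both channels enter these ratios. At 16 h untreated Ctsh and Ctss were at 16.6 and 17.3 log2 intensity in MyD88-KO, the lowest of its arrays. In TRIF-KO they were at 17.4 and 18.5. With LPS the levels at 16 h were 18.5 and 18.6 in MyD88-KO and 15.8 and 17.1 in TRIF-KO. The difference of slopes, TRIF-KO minus MyD88-KO, was compared after these values had been seen: 6 members were lower and 0 higher, against 2.49% and 1.39% of all genes. They were Ctss (-0.81 ± 0.14, adjusted p = 0.0092), Ctsh (-0.81 ± 0.16, adjusted p = 0.014), Ctsb (-0.59 ± 0.12, adjusted p = 0.014), Ids (-0.54 ± 0.12, adjusted p = 0.024), Npc2 (-0.47 ± 0.11, adjusted p = 0.025) and Scarb2 (-0.28 ± 0.07, adjusted p = 0.042). With the scan day or the slide as a term 0 of the 6 remained past the threshold, and leaving out the TRIF-KO array of 16 h also left 0.

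Ctsb, a cysteine protease of broad range, had ratios of 0.55, 0.18, -0.05, -0.64 and -0.56 in TRIF-KO, against 0.10, -0.31, 0.19, 0.65 and 1.07 in MyD88-KO. Npc2, which hands cholesterol to Npc1 in the lysosome, had -0.29, 0.18, -0.26, -0.40 and -0.79 in TRIF-KO, against 0.06, -0.05, 0.54 and 1.32 at 1, 2, 8 and 16 h in MyD88-KO, which was near 0 at 4 h. Its MyD88-KO slope of 0.31 ± 0.07 passed the test (adjusted p = 0.017), as did those of Ctsc (0.72 ± 0.16, adjusted p = 0.014, but a slope of 0.17 with adjusted p = 0.82 by the second probe), Ctsz (0.39 ± 0.06, adjusted p = 0.0011), Ctsh and Ctsb. The Ctsl ratio went the other way in MyD88-KO, with 0.19, -0.25, -0.46, -1.09 and -1.49 (slope -0.42 ± 0.08, adjusted p = 0.0037), whereas it had 0.33, 0.02, -0.45, 0.09 and 0.48 in wild-type. Both channels moved here: from 1 to 16 h untreated Ctsl in MyD88-KO rose from 17.82 to 18.82 log2 intensity. With LPS it went from 18.01 to 17.33. The proteases split: in MyD88-KO 4 of the 10 proteases rose and 2 fell. Leaving out the MyD88-KO array of 16 h, the Ctsh slope had an adjusted p of 0.78 and the Npc2 slope one of 0.32.

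**Figure D4:**
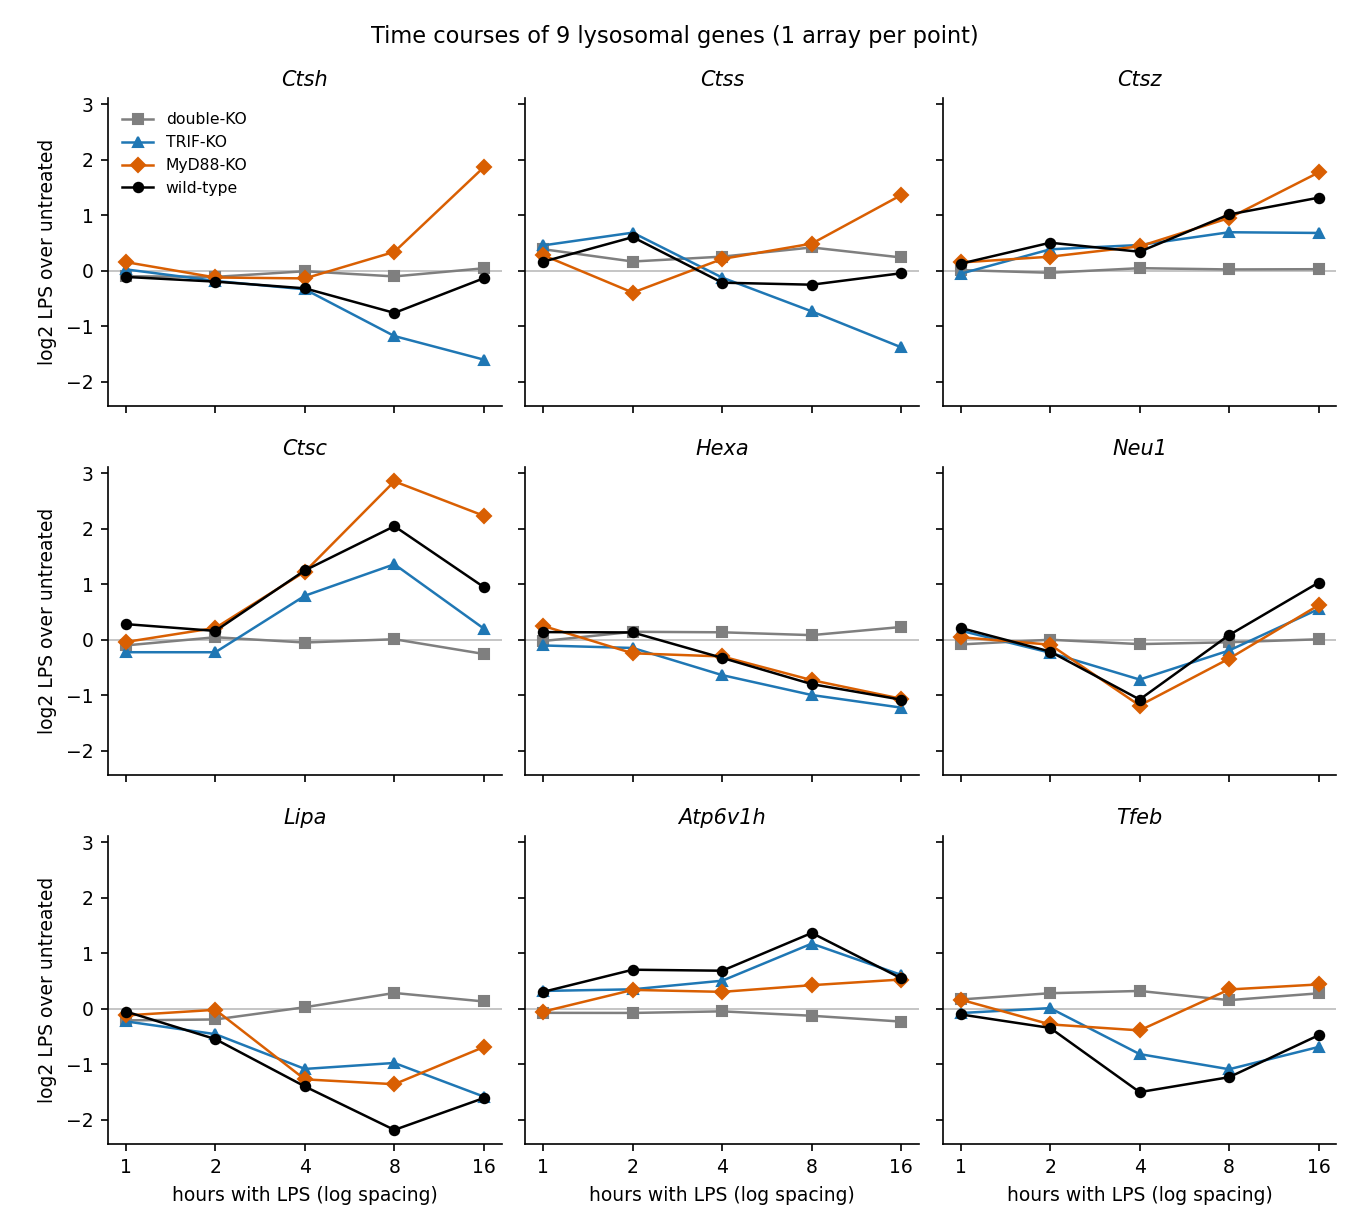
Log2 ratio of LPS over untreated against hours with LPS for 9 members, 1 array per point, with 1 line per genotype. Double-KO lines stay near 0; Ctsh and Ctss part between TRIF-KO (-1.60 and -1.38 at 16 h) and MyD88-KO (1.86 and 1.36), Hexa falls in the 3 responding genotypes, and Neu1 dips at 4 h and ends above 0.

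Without LPS, cathepsin E set the double-KO cells apart. The untreated level of Ctse, whose probe lies on chromosome 1 at 133571990 to 133572049 (mm9), was 16.17, 16.04, 15.96, 15.80 and 15.15 log2 intensity in double-KO at 1, 2, 4, 8 and 16 h, against 9.97, 10.99, 10.21, 9.97 and 9.83 in wild-type. The levels did not overlap, and the TRIF-KO arrays (9.33 to 10.86) and MyD88-KO arrays (9.81 to 10.96) lay with wild-type. The difference of 5.63 ± 0.15 is 49.5-fold (adjusted p = 1.8e-12, n = 5 each). It kept its call under each of the 28 alternatives run for it, between 5.47 and 6.41.

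Glb1, the beta-galactosidase of lysosomes, was lower in untreated double-KO, with 12.73, 12.51, 12.51, 12.42 and 11.88, against 13.81, 13.40, 13.66, 13.48 and 13.31 in wild-type. The values did not overlap, and the difference was -1.12 ± 0.08 (2.18-fold lower, adjusted p = 2.8e-07), called under each of its 28 alternatives. The Glb1 probe lies on chromosome 9 at 114383136 to 114383195 (mm9), 4.86 Mb from the Myd88 probe on the same chromosome. Glb1 in MyD88-KO was at 13.27 to 13.96, within or above the wild-type range on each array but 1.

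In all, 6 members were higher and 4 lower in untreated double-KO than in wild-type, against 14.7% and 11% of all genes, so the members' share was near that of all genes. Next to Ctse the higher ones were Arsb, a sulfatase (0.88 ± 0.14, adjusted p = 0.00044), Galc, which degrades galactosylceramide (0.36 ± 0.09, adjusted p = 0.0082), Npc1, the cholesterol exporter (0.36 ± 0.11, adjusted p = 0.023), Mcoln1, a calcium channel of lysosomes (0.33 ± 0.10, adjusted p = 0.021) and Gaa (0.27 ± 0.08, adjusted p = 0.024). Next to Glb1 the lower ones were Ctsz (-0.48 ± 0.11, adjusted p = 0.0077), Ctsh (-0.46 ± 0.11, adjusted p = 0.0091) and Ctsd (-0.34 ± 0.09, adjusted p = 0.016). Other probes gave -0.09 and 0.05 for Gaa (adjusted p = 0.47 and 0.74) and 0.17 for Ctsd (adjusted p = 0.47). The Arsb difference was -0.999 ± 0.53 (SE) with slide as a fixed term, an imprecise estimate as the 2 genotypes shared no slide. With the scan day as a term the differences of Npc1, Mcoln1 and Gaa were 0.03, 0.24 and 0.09 (adjusted p = 0.96, 0.55 and 0.80), and Arsb, Ctsh and Ctsd also missed the threshold. With slide as a fixed term Arsb, Galc, Npc1, Gaa, Ctsz, Ctsh and Ctsd missed it. On the same arrays 4 of 9 macrophage markers differed: Fcgr1 by -1.16, Cd14 by -0.56, Itgam by 0.52 and Mertk by 0.28, and of the 10 neutrophil and precursor markers Camp and Ctsg were higher and Ly6g and S100a8 lower. Of the 4 represented fibroblast and stromal markers 2 were higher, Col1a1 by 1.04 and Col1a2 by 0.42. Of 5 dendritic cell markers 2 were higher and 2 lower, of 5 B cell markers 1 and 1, of 5 T and NK cell markers 0 and 1, and 0 of the 2 mast cell and basophil or the 2 erythroid markers differed. The part of these markers in the members' values was not tested.

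In untreated MyD88-KO minus wild-type 5 members were higher and 1 lower, against 6.14% and 3.77% of all genes. Ctsc was 14.94, 14.31, 14.34 and 14.73 in MyD88-KO at 1, 4, 8 and 16 h, against 15.69, 14.99, 15.03 and 15.97 in wild-type at these times. Each MyD88-KO value was lower than its wild-type partner and than the lowest wild-type value, and the difference was -0.90 ± 0.12 (adjusted p = 0.00064), with -0.56 by the second probe (adjusted p = 0.028). The higher members were Lipa (0.69 ± 0.15, adjusted p = 0.014), Ctsl (0.66 ± 0.17, adjusted p = 0.029), Naglu (0.52 ± 0.14, adjusted p = 0.030), Mcoln1 (0.45 ± 0.10, adjusted p = 0.015) and Gaa (0.32 ± 0.09, adjusted p = 0.033). Markers of neutrophils and their precursors moved with this comparison: the 10 genes on that list summed to an intensity of 109247 to 134371 in untreated MyD88-KO against 38276 to 53983 in wild-type, and 7 of the 10 were higher and 0 lower. Of the 9 macrophage markers Mertk was higher by 0.41, and Fcgr1 and Msr1 were lower (-0.76 and -0.55). The basophil marker Prss34 was higher by 0.34, and no marker of the other lists passed. The part of these markers in the members' values was not tested. With the scan day as a term, 0 members passed. In TRIF-KO minus wild-type 0 members passed, against 0.423% of all genes, with 6 members and 2891 genes at an unadjusted p under 0.05.

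**Figure D5:**
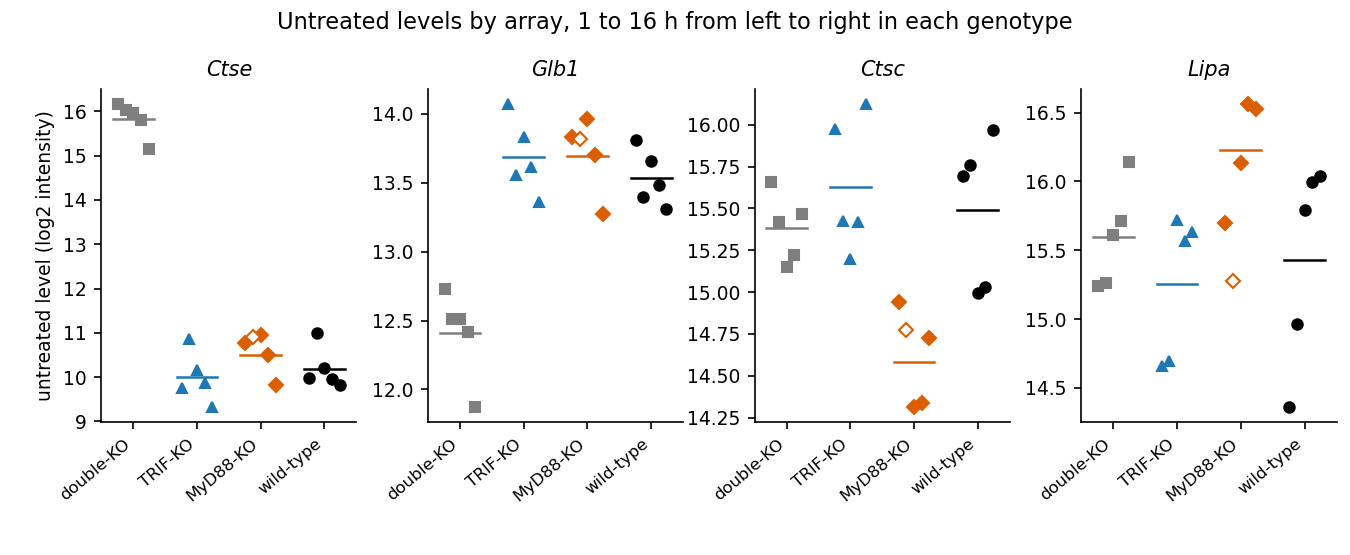
Untreated level (log2 intensity) of Ctse, Glb1, Ctsc and Lipa on each array, ordered from 1 to 16 h within each genotype; lines are means, and the open symbol is the MyD88-KO 2 h array, read in Cy5 and left out of the mean and the fit. Ctse is 15.15 to 16.17 in double-KO and at most 10.99 in wild-type, Glb1 is lower in double-KO, Ctsc is lower in MyD88-KO, and Lipa is higher at later times.

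Untreated levels of some members changed with time in culture. In a fit with 1 slope over log2 time for all genotypes, 2 of 38 members rose and 7 fell, against 15% and 16.2% of all genes. The share of members that rose thus lay under that of all genes, and the share that fell was near it. The untreated level of Lipa was 15.24, 15.26, 15.61, 15.71 and 16.14 in double-KO, 14.66, 14.70, 15.72, 15.56 and 15.63 in TRIF-KO and 14.36, 14.97, 15.79, 15.99 and 16.04 in wild-type at 1 to 16 h. It was higher at 16 h than at 1 h in each of these genotypes, and its slope was 0.29 ± 0.04 per doubling of time (adjusted p = 3.3e-05). Atp6v1h rose by 0.09 ± 0.03 (adjusted p = 0.025). Ctse, Galc, Smpd1, Tpp1, Glb1, Arsb and Ctsh fell, with slopes between -0.19 (Ctse) and -0.12 (Ctsh) and adjusted p between 0.00068 (Galc) and 0.019 (Ctse).

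Of 99 other genes of lysosomes, autophagy and hydrolase delivery on the arrays, 4 had a higher and 10 a lower LPS response in double-KO than in wild-type, against 6.07% and 5.95% of all genes. With slide as a fixed term 0 of all genes tested passed in this comparison. Among 25 other hydrolases 2 were higher and 1 lower, among 14 other pump subunits 0 and 2, among 16 other membrane proteins 0 and 3 and among 16 autophagy genes 1 and 2. Tfec, a relative of Tfeb found in macrophages, averaged a ratio of -0.06 in double-KO against 1.86 in wild-type (difference -1.92 ± 0.38, adjusted p = 0.0092). Mcoln2, a channel related to Mcoln1, averaged -0.12 against 1.45 (difference -1.57 ± 0.30, adjusted p = 0.0086), and Sqstm1, the autophagy receptor p62, averaged 0.02 against 1.32 (difference -1.30 ± 0.23, adjusted p = 0.0053). Tfec, Mcoln2 and Sqstm1 thus had positive mean ratios in wild-type. There Tfeb had a negative ratio at each time point, and Mcoln1 had 0.04, -0.22, -0.63, -0.63 and 0.47 at 1, 2, 4, 8 and 16 h. Pla2g15, a lysosomal phospholipase, averaged -0.10 in double-KO against -1.49 in TRIF-KO (difference 1.39 ± 0.30, adjusted p = 0.019), and Cst7, an inhibitor of cathepsins, averaged -0.03 in double-KO against 3.15 in MyD88-KO (difference -3.18 ± 0.72, adjusted p = 0.023). Without LPS, Clcn7, a chloride transporter of lysosomes, averaged 10.90 in double-KO against 13.03 in wild-type (difference -2.13 ± 0.17, adjusted p = 5.1e-07), and Sort1, a sorting receptor, 14.48 against 12.76 (difference 1.72 ± 0.22, adjusted p = 6.9e-05).

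The promoters of the members were searched for the element that Tfeb binds. Many lysosomal genes share it, so a high share among members chosen as lysosomal can follow from that choice alone. It does not bear on the response to LPS. RefSeq windows of 250 bases before to 50 after a start (GRCm38.p6) matched 32 of the 38 members by symbol. The letters CACGTG, the core of the element, are the same on both strands and were in the window of 11 of 32 members (34.4%), against 8.09% of 27025 genes. With a T before them (TCACGTG on either strand, which contains CACGTG) they were in 10 members (31.2%) against 4.29% of genes. The 8 stretches below lie wholly before the start and are shown because they carry the core, in capitals, on the gene's strand from 5′ to 3′:
Ctsd, chr7:142387900-142387945, minus strand: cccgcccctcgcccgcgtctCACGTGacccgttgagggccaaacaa
Gaa, chr11:119267803-119267848, plus strand: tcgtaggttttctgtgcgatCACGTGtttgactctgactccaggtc
Gla, chrX:134601174-134601219, minus strand: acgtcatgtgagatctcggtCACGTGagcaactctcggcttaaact
Glb1, chr9:114401010-114401055, plus strand: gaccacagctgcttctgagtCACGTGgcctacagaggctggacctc
Naglu, chr11:101070001-101070046, plus strand: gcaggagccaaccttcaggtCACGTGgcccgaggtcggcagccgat
Lamp1, chr8:13159113-13159158, plus strand: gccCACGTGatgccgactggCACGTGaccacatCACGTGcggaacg
Mcoln1, chr8:3500454-3500499, plus strand: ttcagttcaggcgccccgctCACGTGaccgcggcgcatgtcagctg
Atp6v1a, chr16:44139365-44139410, minus strand: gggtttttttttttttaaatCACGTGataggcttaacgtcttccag

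The Lamp1 window holds 4 copies of the core. The longer palindromic CLEAR element, of which CACGTG is the centre, was in 0 of the 32 members against 0.37% of genes. An NF-kB site was in 0 against 0.466%, and the core of the interferon-stimulated element in 2 (6.25%) against 3.99%. Each was searched as 1 string of 10 bases, so other forms of these elements were not counted. With so few matches among all genes, 0 among 32 members says little. It does not show that CLEAR or NF-kB sites are absent. The genes that carry CACGTG did not share 1 course: at 16 h in wild-type Gaa had a ratio of 0.84 and Mcoln1 0.47, Naglu -0.02 and Glb1 -0.38. Gla, the alpha-galactosidase, had ratios between 0.08 and 0.37 on all 5 wild-type arrays. The median ratio of the 11 members with the core was -0.65 in TRIF-KO, -0.67 in MyD88-KO and -0.51 in wild-type at 8 h, and -0.31, 0.12 and 0.33 at 16 h. That of the 21 members without it was -0.91, -0.22 and -0.42 at 8 h, and -0.67, -0.11 and -0.21 at 16 h. Ctsc and Ctsz, with positive ratios, and Hexa, Gusb and Lipa, with negative ones, have no CACGTG in their windows, which says only that these letters are not there.

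Asah1, the acid ceramidase, fell with time in TRIF-KO (slope -0.29 ± 0.07, adjusted p = 0.023), with a ratio of -0.21 in double-KO against -1.23 in TRIF-KO at 8 h. Ctsa, a carboxypeptidase that also stabilises Glb1 and Neu1, had ratios between -0.65 and 0.38 over the 20 arrays, and Lamp2, the partner of Lamp1, between -0.57 and 0.44. The slopes of Lamp2 did not pass the test by its brightest probe, but its second probe gave -0.31 in TRIF-KO and 0.20 in MyD88-KO (adjusted p = 0.0050 and 0.035) and a difference of -0.52 between them (adjusted p = 0.0059). Atp6v0d1, a subunit of the membrane part of the pump, stayed between -0.12 and 0.41. Ids, an iduronate sulfatase, had -1.14 and -1.05 at 8 and 16 h in TRIF-KO, 0.85 and 0.13 in MyD88-KO and -1.23 and -1.36 in wild-type. Its MyD88-KO values were above both other genotypes at both times.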

How the data were processed

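The deposited scanner files, made with Agilent Feature Extraction 10.10.1.1 per the file headers, give the mean and background intensity of both channels, and the value table that the authors deposited holds the log10 ratio of Cy5 over Cy3 of the same files, within 5e-10, with a median of 0 per array and not turned for the swapped array. Coordinates are those of mm9, per the file headers. From the deposited intensities, background was corrected with normexp (offset 50) in limma 3.58.1 (R 4.3.3), and each array was normalized by loess. Levels were quantile-normalized between arrays (Aquantile). Control and outlier spots were left out and saturated spots kept (at most 81 per array and channel). Probes well above background on at least 3 arrays were kept (28304 of 39429), and the brightest represents a gene. RefSeq names were found by accession (27234 probes), symbol (3576) or synonym (565); the other 8054 probes go by the files' own gene name.

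The log2 ratios made from the deposited intensities were tested with limma's moderated test over 21961 genes with Benjamini-Hochberg adjustment at 0.05, with genotype and time point as terms, or genotype with slopes over log2 time (21959 genes). Untreated levels used the 19 arrays with untreated RNA in Cy3. Replicate numbers are time points by label: deviations of same-numbered ratios correlated at 0.74 to 0.83 for TRIF-KO and wild-type, but at -0.04 to 0.13 for double-KO and wild-type. All 38 members may be named, with values per array for those past the threshold with the largest estimates and for members of 1 role that differ. Members and lists were chosen with earlier results of these data known. In a test on simulated data for the double-KO minus wild-type response, the fit recovered the changes it was given and made few false calls. Those changes were of 1 log2 unit or more, larger than most differences called here, so recovery of smaller ones was not tested. The simulated errors were independent between arrays, apart from a time effect shared by all genotypes. The real double-KO ratios shared little of their course with wild-type (-0.04 to 0.13). The simulation held no slide or scan day effect, so it cannot vouch for calls that moved with those settings or with the time block. Alternatives were background correction, normalization, filter, probe choice, slide, scan day, dye term, the authors' log ratio, the time block and leaving out each array. Arrays of 1 scan day alone and the slope difference of TRIF-KO and MyD88-KO were added after the data were seen. No genome was used, so the place of a probe in exons is not given.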

Additional observations from a re-analysis of the deposited data

Results flagged for a closer look

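A sample apart from the others of its genotype was found in 8 of 304 groups of 4 or 5 arrays. Chance alone gives about 1 in 20, so the flags were fewer than that. The arrays of a group are different time points, so an odd sample and a change with time cannot be told apart. Each value below is a single array. Among log2 ratios of LPS over untreated, the MyD88-KO array of 16 h stood apart for Ctsh (1.86) and Ctse (-1.39), the double-KO array of 16 h for Smpd1 (0.0643), and the MyD88-KO array of 1 h for Ppt1 (-0.0814). Among untreated log2 levels, the double-KO array of 16 h stood apart for Ctsz (17.0, above the others), the double-KO array of 1 h for Naglu (13.3), the wild-type array of 1 h for Arsb (8.08) and the wild-type array of 16 h for Smpd1 (13.0, below the others).

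The LPS response differed between double-KO and another genotype by limma's test for the following members, in log2 units. Against wild-type these were Lipa (1.17), Tfeb (0.972), Tpp1 (0.729), Ctsd (0.626), Gusb (0.596), Ctsz (-0.646) and Atp6v1h (-0.832). Against TRIF-KO these were Hexa (0.735), Ctsd (0.685), Naglu (0.616), Tpp1 (0.613), Gusb (0.611), Ppt1 (0.545) and Atp6v1h (-0.702). Against MyD88-KO these were Ctsd (0.665), Ppt1 (0.372), Ctsz (-0.698) and Ctsc (-1.37). Slopes over log2 time differed between double-KO and wild-type for Hexa (0.381), between double-KO and TRIF-KO for Scarb2 (0.384), Cd68 (0.356) and Hexa (0.353), and between double-KO and MyD88-KO for Ctsl (0.45), Hexa (0.355) and Ctsz (-0.385). Between TRIF-KO and MyD88-KO slopes differed for Ctsb (-0.594), Ctsh (-0.813), Ctss (-0.814), Ids (-0.541), Npc2 (-0.469) and Scarb2 (-0.28). These comparisons share arrays, and the causes were not tested.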

How the results depend on the processing

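Counts of members past the threshold moved with several settings, and the causes were not tested. The LPS response gave 7, 7 and 4 members in double-KO minus wild-type, TRIF-KO and MyD88-KO; with median centring it gave 1 and 0 against wild-type and MyD88-KO, with slide as a random block 0, 1 and 0, with slide fixed 0 in each, and with scan day as a term 2 and 1 against wild-type and TRIF-KO. Within scan day 2 alone, 7 members differed from MyD88-KO. Slopes in TRIF-KO gave 12 members, but 0 with median centring and 0 with slide fixed. Slopes in MyD88-KO gave 9, but 5 with slide random, 0 with slide fixed, 0 with scan day and 4 with a dye term, and with median centring 7 rose and 0 fell, against 5 and 4. Slopes in wild-type gave 6, but 0 with median centring. The slope difference of double-KO from wild-type (1 member) gave 0 with median centring and 0 by the authors' log ratio, that from TRIF-KO (3) gave 0 with median centring and with either slide term, and that from MyD88-KO (3) gave 1 with slide random, 0 with slide fixed, 0 with scan day, 1 by the authors' log ratio and 1 with a dye term. The 6 of TRIF-KO minus MyD88-KO became 3 with median centring and 0 with either slide term or scan day. Untreated, double-KO minus wild-type gave 10, but 2 with slide random, 5 with slide fixed and 6 with scan day, and with median centring 2 were higher and 5 lower, against 6 and 4; TRIF-KO minus wild-type gave 0, but 1 with scan day and 1 within scan day 1; MyD88-KO minus wild-type gave 6, but 2 with median centring, 1 with slide random, 2 with slide fixed and 0 with scan day. Signs turned with slide fixed for Ctsd (-0.51 ± 0.63, SE) and Tfeb (-0.31 ± 0.81) in the double-KO minus wild-type response and for Arsb untreated (-0.999 ± 0.53). Double-KO and wild-type shared no slide, so these estimates are imprecise. Signs also turned for the Cd68 slope in MyD88-KO (0.10 with median centring, 0.014 with slide fixed or scan day). The Hexa slope difference from MyD88-KO turned with median centring (-0.063).

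Without the time point as a replicate block, double-KO differed from wild-type, TRIF-KO and MyD88-KO in 1, 1 and 0 members, and untreated levels from wild-type in 6 for double-KO and 0 for MyD88-KO. Leaving out 1 array at a time, the response counts against wild-type, TRIF-KO and MyD88-KO ran from 1 (without double-KO at 8 h) to 12, from 1 (without TRIF-KO at 8 h) to 16 and from 0 (without MyD88-KO at 4 h) to 10, each highest without double-KO at 1 h. Those of TRIF-KO and MyD88-KO minus wild-type stayed at 0, and TRIF-KO minus MyD88-KO ran from 0 to 1. Slope counts stayed at 0 in double-KO and ran from 2 to 14 in TRIF-KO, 4 to 10 in MyD88-KO and 3 to 7 in wild-type. Slope differences of double-KO ran from 0 to 2, 0 to 4 and 0 to 3 against wild-type, TRIF-KO and MyD88-KO, and those of TRIF-KO minus MyD88-KO from 0 to 7. Untreated counts ran from 7 to 12 for double-KO, 0 to 1 for TRIF-KO, 1 (without MyD88-KO at 8 h) to 11 for MyD88-KO and 7 to 12 for the slope. Ctse and Glb1 in untreated double-KO kept their calls under all 28 alternatives run for each. The number of arrays, 1 per genotype and time, limits the precision.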
